A study of Rattus norvegicus with 8 samples.

Results

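The Hippo pathway and the related NDR kinases were followed in H9c2 cells, a myoblast line from embryonic rat heart, through 10 genes: the NDR kinases Stk38 and Stk38l, the LATS kinases Lats1 and Lats2, the coactivators Yap1 and Wwtr1, their DNA-binding partner Tead1, the LIM protein gene Ajuba and the target genes Ccn1 and Ccn2. The genes were taken by symbol from the array's annotation, with the brightest probe set standing for a gene. Of the 10 genes, 8 were named there, each by 1 probe set, among 15037 named genes and 23188 probe sets in all. Stk38 and Yap1 were not analysed here. The set was chosen by the log2 intensities of these same 8 arrays in the 4 groups of regime and treatment, and Stk38l in particular had ranked near the top by p for both factors, so the members' values and differences are descriptions and no test of a member is used as support.

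Cells were seeded at 35000 per square centimetre, carried in a pouch preheated to 27 °C and fixed on day 10. The cultures compared were of these kinds: nanoceria-treated cells in space (2 arrays), untreated cells in space (1 array), nanoceria-treated cells on ground (3 arrays) and untreated cells on ground (2 arrays, replicates 1 and 3). Nanoceria, cerium oxide nanoparticles that are studied as antioxidants, had been given at 100 µg/ml in a serum-coated dispersion diluted in low-serum differentiation medium. Space cultures reached the station on day 7 and were placed at 37 °C there, while ground cultures were run afterwards with the logged flight temperatures, so gravity regime and culture run cannot be told apart. All samples came from the same cell line, 30 ng of total RNA went to each rat Clariom S Pico array, and the labels did not say whether replicates were separate cultures, so p-values measure only the spread between these samples.

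In the Hippo pathway, a kinase cascade ends in the LATS kinases, which phosphorylate the coactivators YAP and TAZ and keep them out of the nucleus. When the cascade is quiet, YAP and TAZ bind TEAD factors and switch on genes such as Ccn1 and Ccn2, and in many adherent cells this output follows stretch, spreading and cytoskeletal tension. The NDR kinases STK38 and STK38L are the closest relatives of the LATS kinases and act in cell cycle control, autophagy and cell shape. In cultured myoblasts, active YAP is known to favour proliferation over differentiation.

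Median intensities lay at 107 to 117 on the arrays. Ground untreated replicate 3 stood apart in mitotic genes, where 10 of 10 measured genes reached their minimum. The mean of these genes relative to all 8 arrays was -2.19 on that array and between -0.17 and 0.57 on the other 7. The 6 myoblast markers were all named on the array, and their mean log2 intensity was 6.88 and 7.18 in treated cells in space, 7.23 in untreated cells in space, 7.46, 7.13 and 7.44 in treated cells on ground, and 6.66 and 6.19 in untreated cells on ground. The means of 4 fibroblast markers (10.39 to 10.76), 3 endothelial markers (4.82 to 5.28) and 3 leukocyte markers (5.15 to 5.40) are given without a detection limit, because none was available. These means pool genes of unlike level. Among fibroblast markers, group means were 14.14 to 14.21 for Col1a1 and 5.17 to 5.73 for Pdgfra. Among leukocyte markers they were 7.11 to 7.58 for Cd68 and 4.13 to 4.42 for Ptprc, and among myoblast markers 7.32 to 9.41 for Myog and 4.05 to 4.75 for Myf5.

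Stk38l, which encodes the NDR kinase also called NDR2, showed the widest range of the 8 genes. Its log2 intensity was 7.11 and 7.07 in nanoceria-treated cells in space, 6.32 on the untreated space array, 8.25, 8.34 and 8.53 in nanoceria-treated cells on ground, and 7.41 and 7.17 in untreated cells on ground. Every space array lay below every ground array, and within each regime every treated array lay above every untreated one. The order of the group means was therefore treated on ground, untreated on ground, treated in space and untreated in space, and the neighbours treated in space (7.09 ± 0.03, SD, n = 2) and untreated on ground (7.29 ± 0.17, SD, n = 2) differed by about the spread of the ground pair. In bulk RNA, fewer cells with the transcript and less transcript per cell cannot be told apart.

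In an additive fit of regime and treatment, Stk38l differed by -1.17 ± 0.13 on the log2 scale (SE) between space and ground, or 0.444-fold, and by 0.97 ± 0.13 between nanoceria and no treatment, or 1.96-fold. Within regimes, the treatment difference was 0.77 ± 0.22 in space and 1.09 ± 0.16 on ground. Between regimes it was -1.28 ± 0.16 in treated cells and -0.97 ± 0.22 in untreated cells, and the interaction of regime and treatment was -0.31 ± 0.27. The differences kept their sign in every fit that left out 1 array, at -1.23 for regime and 0.87 for treatment without ground untreated replicate 3. The spread of Stk38l within groups was small, with a residual SD of 0.13, against a median of 0.24 over named genes. The deposited table gave no probe sequences, so cross-hybridisation with the related Stk38 transcript was not tested.

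**Figure D1:**
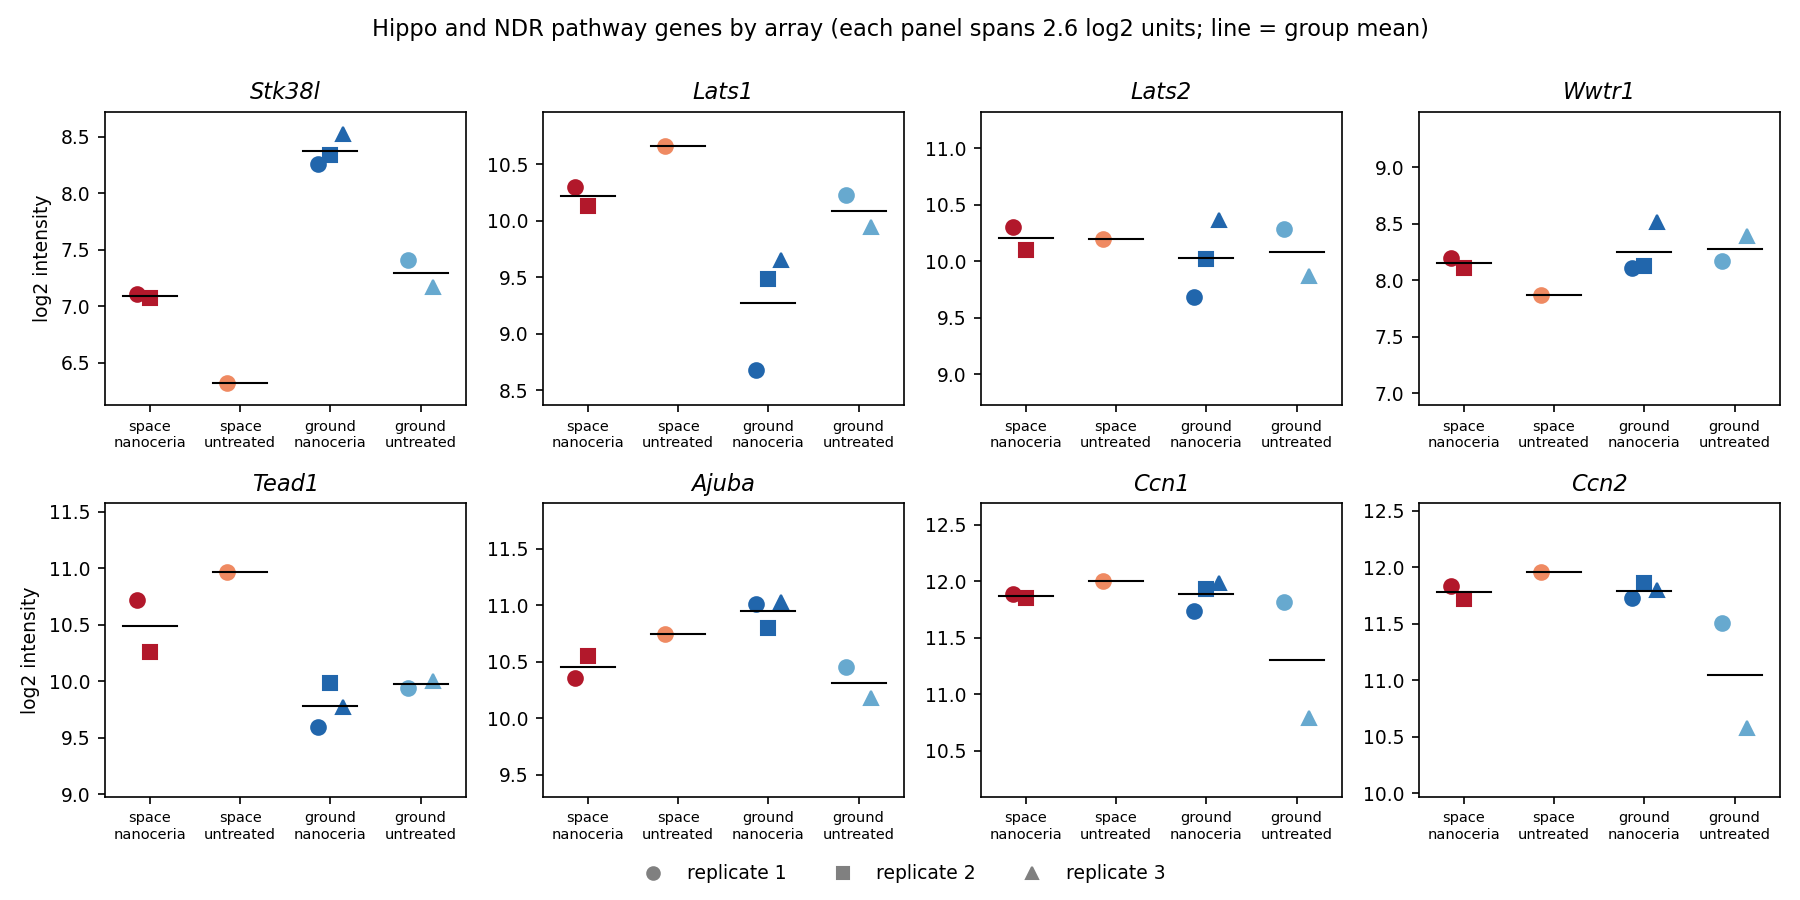
Log2 intensity (vertical axes, each spanning the same range) of the 8 measured genes on each of the 8 arrays, in the 4 groups of regime and treatment, with a line at the group mean and symbols for the replicate number. Stk38l runs from 6.32 on the untreated space array to 8.53 in treated cells on ground, Tead1 is higher on the 3 space arrays, and Ccn1 and Ccn2 are low on ground untreated replicate 3 (10.78 and 10.58).

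The LATS kinases, which phosphorylate YAP and TAZ, did not share a profile. Lats1 had a log2 intensity of 10.30 and 10.13 in treated cells in space, 10.66 in untreated cells in space, 8.67, 9.48 and 9.65 in treated cells on ground, and 10.22 and 9.95 in untreated cells on ground. The 3 treated ground arrays were the lowest of all 8, and treated ground replicate 1 was lower than the other two by more than their distance from each other. The additive fit gave 0.81 ± 0.23 for space minus ground and -0.68 ± 0.23 for nanoceria minus untreated, with the treatment difference at -0.44 ± 0.40 in space and -0.82 ± 0.29 on ground. Without treated ground replicate 1 the ground difference was -0.52.

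Lats2, itself a known YAP target gene, ranged only from 9.68 to 10.37. Its log2 intensity was 10.30 and 10.10 in treated cells in space, 10.20 in untreated cells in space, 9.68, 10.02 and 10.37 in treated cells on ground, and 10.29 and 9.87 in untreated cells on ground. The lowest and the highest value both came from treated cells on ground, and every other array lay between them. The additive differences of 0.16 ± 0.18 for regime and -0.03 ± 0.18 for treatment were each smaller than their SE.

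Tead1, a DNA-binding partner of YAP and TAZ that also occupies muscle promoters, was higher in space. Its log2 intensity was 10.72 and 10.26 in treated cells in space, 10.96 in untreated cells in space, 9.59, 9.99 and 9.77 in treated cells on ground, and 9.94 and 10.01 in untreated cells on ground. The space and ground arrays did not overlap, and the ground groups differed by less than the range within the treated one. The additive fit gave 0.81 ± 0.16 for space minus ground, or 1.75-fold, and -0.29 ± 0.16 for nanoceria minus untreated. The regime difference was 0.71 ± 0.20 in treated cells and 0.99 ± 0.27 in untreated cells, where space was 1 array.

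Wwtr1, which encodes the coactivator TAZ, varied little. Its log2 intensity was 8.20 and 8.10 in treated cells in space, 7.87 in untreated cells in space, 8.11, 8.13 and 8.52 in treated cells on ground, and 8.17 and 8.39 in untreated cells on ground. The untreated space array was the lowest of the 8, and the other groups overlapped. The differences were -0.21 ± 0.15 for regime and 0.08 ± 0.15 for treatment.

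Across the 8 genes, the additive fit placed 5 higher and 3 lower in space, beside 41.3% and 58.7% of all probe sets, and 5 higher and 3 lower with nanoceria, beside 56.0% and 44.0%. With limma and Benjamini-Hochberg adjustment over all probe sets, 0 of the 8 had an adjusted p below 0.05 in either comparison, as did 0% of the 23188 probe sets. At an unadjusted p below 0.05, 2 were higher in space (Lats1 and Tead1) and 1 lower (Stk38l), beside 5.30% and 4.26% of all probe sets. For nanoceria, 1 was higher (Stk38l) and 1 lower (Lats1), beside 3.77% and 5.86%. The space and ground arrays did not overlap for Tead1 (higher, as for 1.97% of probe sets) and Stk38l (lower, as for 3.14%), and all 8 genes overlapped between the treated and untreated arrays of both regimes pooled, where 4.74% of probe sets did not. The median difference of the 8 genes was 0.20 for regime and 0.19 for treatment, beside -0.04 and 0.03 over all probe sets. These counts describe genes that were chosen with the same arrays in view. When arrays were weighted by their quality, Stk38l reached an adjusted p of 0.0349 in limma for space minus ground (-1.16 ± 0.11), and over the fits that left out 1 array its adjusted p ran from 0.0808 to 0.891.

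**Figure D2:**
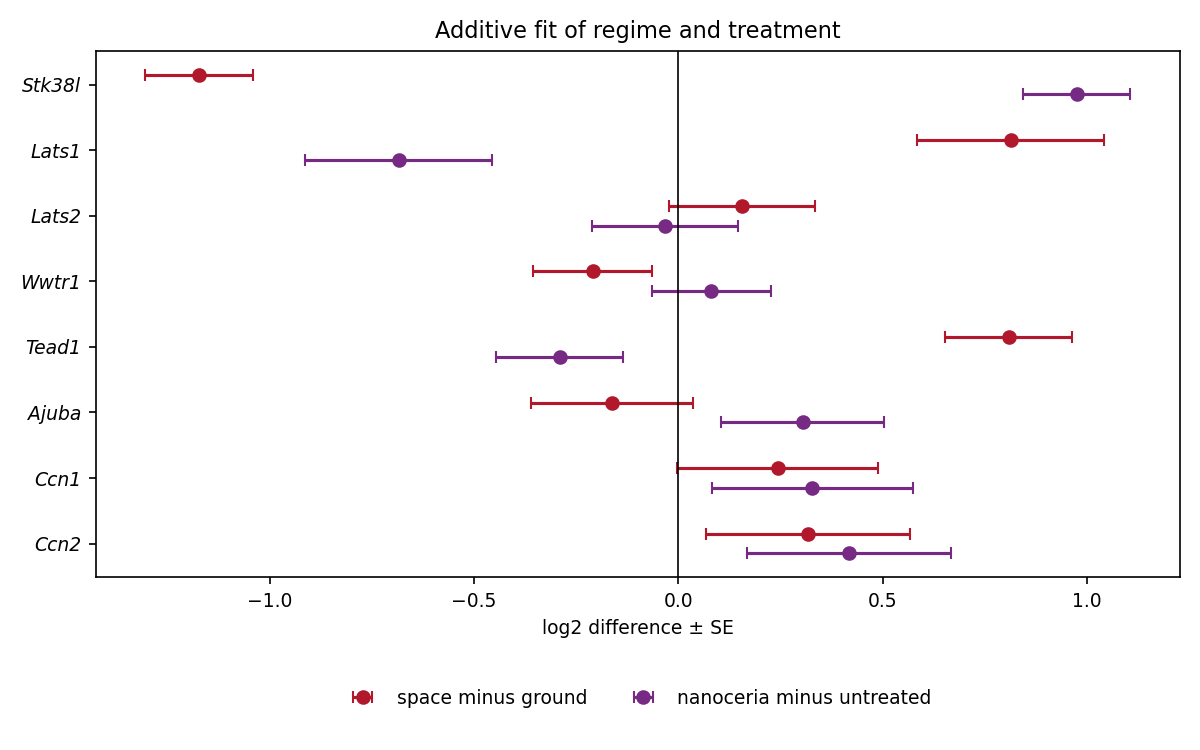
Log2 difference ± SE of each gene for space minus ground and for nanoceria minus untreated, from the additive fit of all 8 arrays. Stk38l lies at -1.17 and 0.97, Lats1 at 0.81 and -0.68, and Tead1 at 0.81 and -0.29, on opposite sides of 0 for the 2 factors, while Ccn1 and Ccn2 lie between 0.24 and 0.42 for both with ground untreated replicate 3 included, and between -0.03 and 0.12 without it.

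The target genes Ccn1 and Ccn2 encode secreted matricellular proteins, formerly called CYR61 and CTGF, and are the most widely used readouts of YAP and TAZ. Ajuba encodes a LIM-domain protein that binds and inhibits LATS kinases at adherens junctions. The regions around their start sites are shown because TEAD factors bind a short motif, GGAATG or CATTCC on the other strand, and these genes had it within the window. The sequences run from 250 bases before to 50 after the RefSeq start site in the rat build GRCr8, at chr1:22624565-22624864 for Ccn2, chr2:237225640-237225939 for Ccn1 and chr15:31999993-32000292 for Ajuba, all on the minus strand and printed 5′ to 3′ along the gene with the motif in capitals.
Ccn2: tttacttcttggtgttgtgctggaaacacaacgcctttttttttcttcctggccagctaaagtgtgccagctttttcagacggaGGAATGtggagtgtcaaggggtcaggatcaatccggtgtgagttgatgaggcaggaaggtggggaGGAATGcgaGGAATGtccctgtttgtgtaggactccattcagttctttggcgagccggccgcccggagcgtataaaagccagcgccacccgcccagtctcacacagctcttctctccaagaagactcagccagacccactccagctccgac
Ccn1: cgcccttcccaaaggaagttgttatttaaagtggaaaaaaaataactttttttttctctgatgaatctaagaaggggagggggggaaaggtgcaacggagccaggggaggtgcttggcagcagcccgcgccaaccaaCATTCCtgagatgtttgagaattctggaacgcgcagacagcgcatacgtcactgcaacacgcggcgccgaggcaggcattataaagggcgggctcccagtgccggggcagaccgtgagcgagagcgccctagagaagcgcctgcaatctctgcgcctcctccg
Ajuba: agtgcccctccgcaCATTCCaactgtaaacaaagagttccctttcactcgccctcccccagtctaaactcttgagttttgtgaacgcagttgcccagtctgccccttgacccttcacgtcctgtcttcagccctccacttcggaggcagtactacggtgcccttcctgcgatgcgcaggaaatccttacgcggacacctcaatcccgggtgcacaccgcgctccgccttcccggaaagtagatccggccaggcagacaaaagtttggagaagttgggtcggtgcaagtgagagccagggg

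The Ccn2 window held the motif 3 times, beginning 166, 101 and 92 bases upstream of the start site, and the Ccn1 and Ajuba windows held it once each, 113 and 236 bases upstream. Windows were available for 6 of the 8 measured genes, of which 3 held the motif and those of Stk38l, Lats1 and Wwtr1 did not, while the motif occurred in 14.2% of 33469 rat windows of the same length. The AP-1 motif TGANTCA, read on both strands, occurred in 0 of these 6 windows and in 7.33% of all windows. The TEAD motif was in 3 of 13 available windows (23.1%) of the further target genes listed below. It was in 5 of 21 (23.8%) of the further Hippo genes, so the targets did not stand out. A match is a description of letters and was not tested as a binding site.

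Ccn1 had a log2 intensity of 11.89 and 11.85 in treated cells in space, 12.00 in untreated cells in space, 11.74, 11.93 and 11.98 in treated cells on ground, and 11.82 and 10.78 in untreated cells on ground. Ccn2 had 11.84 and 11.72 in treated cells in space, 11.96 in untreated cells in space, 11.73, 11.86 and 11.80 in treated cells on ground, and 11.51 and 10.58 in untreated cells on ground. Ground untreated replicate 3 was low for both genes, and the other 7 arrays lay within 0.26 for Ccn1 and 0.45 for Ccn2. Of all pairs of the 8 genes, Ccn1 and Ccn2 had the most similar profiles, with a mean absolute difference of 0.08 over the 8 arrays after each was centred on its mean, and Stk38l and Lats1 the least similar, at 1.10.

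In the additive fit, space minus ground was 0.24 for Ccn1 and 0.32 for Ccn2, and nanoceria minus untreated was 0.33 and 0.42. Without ground untreated replicate 3 the regime differences were 0.05 and 0.12 and the treatment differences -0.03 and 0.07, and without the untreated space array the regime differences were both -0.01.

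In space, nanoceria minus untreated was -0.13 ± 0.39 for Ccn1 and -0.18 ± 0.35 for Ccn2. On ground the same difference was 0.58 ± 0.29 for Ccn1 and 0.75 ± 0.26 for Ccn2. Without ground untreated replicate 3 these were 0.06 and 0.28, and without ground untreated replicate 1 they were 1.10 and 1.21. Space minus ground in treated cells was -0.01 ± 0.29 for Ccn1 and -0.01 ± 0.26 for Ccn2. These differences do not involve the untreated arrays, but their SEs do, through a residual variance shared by all groups. Within treated cells the SDs in space and on ground were 0.02 and 0.13 for Ccn1 and 0.08 and 0.07 for Ccn2. The SDs in untreated cells on ground were 0.73 for Ccn1 and 0.66 for Ccn2. In untreated cells space minus ground was 0.70 ± 0.39 and 0.91 ± 0.35, and 0.18 and 0.45 without ground untreated replicate 3. The mitotic genes moved with this array as well: their median difference for nanoceria on ground was 1.27, and 0.23 without ground untreated replicate 3, where 7 of 10 were higher and Mki67 was at -0.81. Their part in the result for Ccn1 and Ccn2 was not tested.

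**Figure D3:**
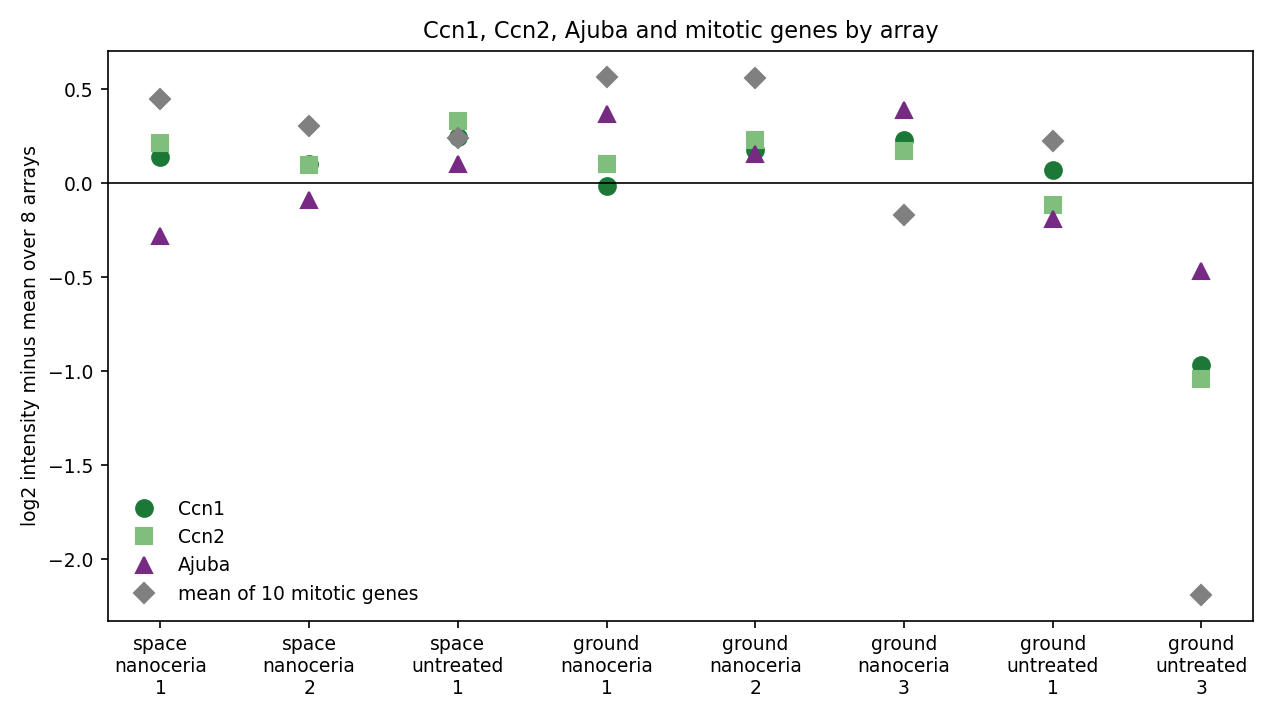
Log2 intensity of Ccn1, Ccn2 and Ajuba, and the mean of 10 mitotic genes, each minus its mean over the 8 arrays (vertical axis), for each array (horizontal axis). Ground untreated replicate 3 is the lowest point for all 4 series, at -2.19 for the mitotic genes.

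Ajuba was lower with nanoceria in space and higher with it on ground. Its log2 intensity was 10.36 and 10.55 in treated cells in space, 10.75 in untreated cells in space, 11.01, 10.80 and 11.03 in treated cells on ground, and 10.45 and 10.18 in untreated cells on ground. In space both treated arrays lay below the single untreated one, and on ground every treated array lay above both untreated arrays. The treatment difference was -0.29 ± 0.23 in space and 0.63 ± 0.17 on ground, and the interaction was -0.92 ± 0.29. Without ground untreated replicate 3 the ground difference was 0.50 and the interaction -0.79. Between regimes Ajuba was at -0.49 ± 0.17 in treated cells and 0.43 ± 0.23 in untreated cells.

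Within regimes, nanoceria in space, with 2 treated arrays set against 1, left 2 of the 8 genes higher without overlap (Stk38l and Wwtr1) and 5 lower, beside 34.4% and 31.5% of all probe sets. On ground, 3 were higher without overlap (Stk38l, Ajuba and Ccn2) and 1 lower (Lats1), beside 14.3% and 12.0%. The means of the 6 myoblast markers were also higher with nanoceria on ground, with a median difference of 0.61. The differences ran from 0.01 for the dim Myf5, which did not separate, to 2.09 for Myog. Without overlap, 5 of the 6 were higher on ground, beside the same 14.3% of probe sets. Without ground untreated replicate 3 the median difference on ground was 0.47 and Myog was at 1.01. In space, against the single untreated array, 1 of the 6 markers was higher with nanoceria and 5 lower, with a median of -0.06. Their part in these values was not tested. In treated cells, space against ground gave 2 higher (Lats1 and Tead1) and 2 lower (Stk38l and Ajuba), beside 13.6% and 17.6%, and in untreated cells 5 higher and 2 lower, beside 26.3% and 30.9%. For the interaction, 5 of the 8 genes had a negative and 3 a positive value, as did 51.3% and 48.7% of probe sets. In none of these 5 comparisons did any of the 8 genes or of the 23188 probe sets (0%) reach an adjusted p below 0.05 with limma, and at an unadjusted p below 0.05 there were 1, 4, 4, 3 and 1 of the 8 genes in the order given, beside 1.47%, 11.0%, 8.41%, 3.14% and 2.35% of probe sets.

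**Figure D4:**
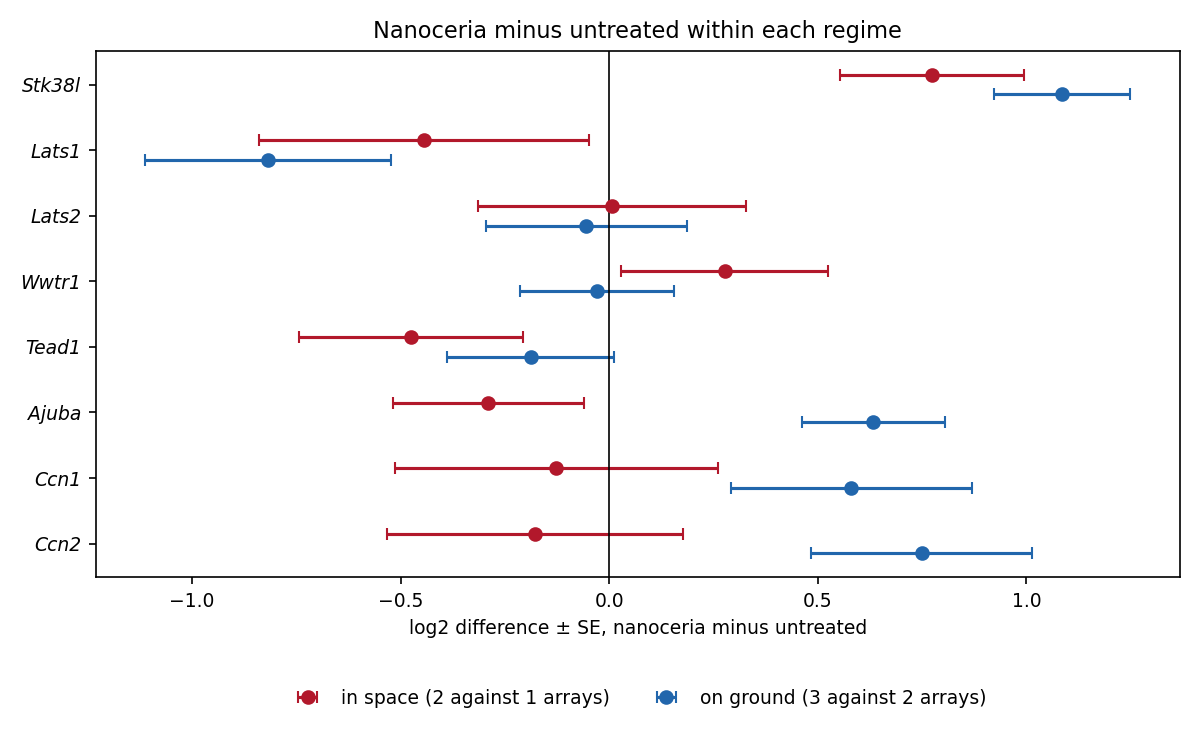
Log2 difference ± SE of nanoceria minus untreated in space (2 arrays against 1) and on ground (3 against 2) for each gene. Stk38l is positive (0.77 and 1.09) and Lats1 negative (-0.44 and -0.82) in both regimes, while Ajuba, Ccn1 and Ccn2 are negative in space and positive on ground.

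The other genes of the pathway were taken from lists of its known members, written with earlier results of these data known. Of 25 further Hippo genes (upstream kinases, scaffolds, phosphatase subunits and TEAD relatives), 19 were measured. In space 12 were higher and 7 lower, beside 41.3% and 58.7% of all probe sets. With nanoceria 7 were higher and 12 lower, beside 56.0% and 44.0%. With limma, 0 of the 19 and 0% of all probe sets had an adjusted p below 0.05 in either comparison. At an unadjusted p below 0.05, 4 were higher and 0 lower in space, beside 5.30% and 4.26% of probe sets, and 1 was higher and 3 lower with nanoceria, beside 3.77% and 5.86%. The median differences were 0.08 for regime and -0.05 for treatment.

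The 4 with an unadjusted p below 0.05 in space were Taok1, Slmap, Strn3 and Stk3, which act at the top of the cascade. Taok1, a kinase that activates the MST kinases, had a log2 intensity of 7.94 and 7.96 in treated cells in space, 8.43 in untreated cells in space, 7.11, 6.72 and 7.24 in treated cells on ground, and 8.14 and 7.72 in untreated cells on ground. It was lowest on the 3 treated ground arrays, as Lats1 was, and differed by 0.77 ± 0.17 for regime and -0.75 ± 0.17 for treatment. Slmap and Strn3, both components of the STRIPAK phosphatase complex that inactivates MST kinases, differed by 0.96 ± 0.27 and 0.75 ± 0.26 for regime and by -0.77 ± 0.27 and -0.86 ± 0.26 for treatment. The regime difference of Strn3 was 1.07 in treated cells but 0.18 in untreated cells. Without ground untreated replicate 3 it was -0.29 in untreated cells, so Strn3 was higher in space in treated cells only. Stk3, the kinase MST2, differed by 0.54 ± 0.19 for regime, and Taok2, a relative of Taok1, by 0.35 ± 0.12 for treatment.

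Genes that work with the NDR kinases were read in the same fit. Of 8 genes (upstream kinases, the binding protein genes Mob2, Fry and Fryl, and the substrate genes Aak1 and Rab3ip) 7 were measured, and their differences ran from -0.13 to 0.25 for regime and from -0.15 to 0.23 for treatment. None had an unadjusted p below 0.05 in limma in either comparison (0 of 7, and 0 after adjustment), beside 5.30% higher and 4.26% lower of all probe sets for regime and 3.77% and 5.86% for treatment, so a count of 0 among 7 genes is near the background. The smallest p belonged to Fry, a scaffold that binds NDR kinases, at 0.25 ± 0.13 for regime, and to Stk25, an upstream kinase, at 0.23 ± 0.15 for treatment. Stk24 and Stk26, of the same kinase group as Stk25, were at 0.06 ± 0.12 and 0.08 ± 0.12 for regime.

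Among 19 further genes of a YAP and TAZ target signature, 13 were measured. In space 7 were higher and 6 lower, beside 41.3% and 58.7% of all probe sets. With nanoceria 5 were higher and 8 lower, beside 56.0% and 44.0%. With limma, 0 of the 13 and 0% of all probe sets had an adjusted p below 0.05 in either comparison. At an unadjusted p below 0.05, 3 were higher and 0 lower in space, beside 5.30% and 4.26% of probe sets, and 0 were higher and 2 lower with nanoceria, beside 3.77% and 5.86%. The medians were 0.03 and -0.09, and the mean of the 13 genes on each array stayed between -0.16 and 0.10 of their mean over all arrays.

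Those with the smallest p in space were Crim1, a transmembrane protein that binds bone morphogenetic proteins, at 0.59 ± 0.19, Asap1, a GTPase-activating protein of focal adhesions, at 0.39 ± 0.14, and Tgfb2, a transforming growth factor, at 0.63 ± 0.27, with Fjx1 at -0.43 ± 0.20. For nanoceria, F3, which encodes tissue factor, had a log2 intensity of 7.24 and 8.80 in treated cells in space, 9.02 in untreated cells in space, 8.45, 8.59 and 8.14 in treated cells on ground, and 9.24 and 9.48 in untreated cells on ground. All 5 treated arrays lay below the 3 untreated ones, and the difference was -0.98 ± 0.31. Asap1 was at -0.33 ± 0.14, the kinase gene Nuak2 at 0.36 ± 0.21 and the angiomotin relative Amotl2 at 0.33 ± 0.20, which was 0.11 without ground untreated replicate 3.

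Ground untreated replicate 3 was thus low in Ccn1 and Ccn2. Of the 13 signature genes, 3 had their lowest value there: Ankrd1 (10.27), Amotl2 (9.29) and Crim1 (10.35). Another 3 had their highest value there: Gadd45a (12.69), F3 (9.48) and Fjx1 (8.04). The mean of the 13 genes on this array was 0.10 above that of all arrays. Gadd45a lay between 10.09 and 11.71 on the other arrays, so 1 gene weighs heavily in this mean. On ground untreated replicate 3 the mean of the 10 mitotic genes was -2.19. In the additive fit, all 10 mitotic genes were higher with nanoceria and 9 higher in space, beside 56.0% and 41.3% of all probe sets. Mki67, a proliferation marker, was at 1.38 ± 0.58 for regime and Cdc20, which drives exit from mitosis, at 1.75 ± 0.76 for treatment. Without ground untreated replicate 3, 7 of the 10 were higher with nanoceria and 6 in space. In that fit Mki67 was at 0.89 for regime and Cdc20 at 0.54 for treatment. The median of the 10 genes for treatment was 0.19 there, against 0.83 with all arrays. Over fits that left out 1 array, between 7 and 10 mitotic genes were higher with nanoceria and between 5 and 10 higher in space.

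The genes most like Stk38l and Ccn2 were found by the mean absolute difference between centred log2 profiles over the 8 arrays, among 15036 other named genes. For Stk38l these were the splicing factor gene Sf3b4 at 0.24, the tubulin gene Tubb6 at 0.25 and the olfactory receptor gene Or51i2 at 0.25, where the median over all genes was 0.63. Or51i2 was dim, at a log2 intensity of 3.81 to 5.13, and whether it was detected at all could not be read here. Sf3b4 had a log2 intensity of 7.68 and 7.60 in treated cells in space, 7.28 in untreated cells in space, 8.76, 8.26 and 8.76 in treated cells on ground, and 7.61 and 7.47 in untreated cells on ground. It shared with Stk38l the highest values in treated cells on ground and the lowest on the untreated space array. Unlike for Stk38l, the treated space arrays of Sf3b4 overlapped its untreated ground arrays. For Ccn2 the nearest were Anxa2, a membrane-binding annexin, at 0.07, Vdr, the vitamin D receptor, at 0.07 and Ccn1 at 0.08, where the median was 0.36. Anxa2 and Vdr likewise had their lowest values on ground untreated replicate 3, at 10.56 and 7.57, against 11.65 to 11.96 and 8.57 to 8.95 on the other arrays. Over the 7 arrays without that one, Anxa2, Vdr and Ccn1 ranked 104, 194 and 142 among the profiles nearest to Ccn2, while Sf3b4, Tubb6 and Or51i2 ranked 5, 3 and 10 for Stk38l.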

How the data were processed

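Total RNA from 8 H9c2 samples was profiled on the rat Clariom S Pico platform, 1 array per sample. The deposited table gave 1 linear intensity per probe set and array (8.63 to 19506), made by the authors with RMA per the submitters' processing notes; the software behind it is not given in the sources used here. Log2 was taken without a pseudocount. No detection measure was available. Of 23188 probe sets, 15049 carried 1 gene symbol. The other 8139 were left without a name, because the symbol was missing or more than 1 was listed. Annotation was matched by symbol.

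All probe sets were fitted with limma 3.58.1 (R 4.3.3), and p-values were adjusted by Benjamini-Hochberg with a threshold of 0.05. Regime and treatment entered as additive terms (5 degrees of freedom left), or each group had its own mean (4 left), in which case the lone untreated space array was assumed to vary like the others. The fits were tested on simulated data. The number of arrays limited precision, with a median standard error of 0.17 in the additive fit and 0.21 to 0.35 otherwise. Members and lists were chosen with earlier results of these data known. Named genes were all members, the 4 genes of each list with the smallest p per additive comparison, and the 3 nearest profiles to Stk38l and Ccn2. Promoter windows came from RefSeq (GRCr8). Alternatives were 2 scalings, a filter on dim probe sets, a variance trend, array weights, the replicate number as a block, and leaving out each array.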

Additional observations from a re-analysis of the deposited data

Results flagged for a closer look

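Ajuba and Ccn2 were marked because every treated array moved one way on ground and the other way in space. For Ajuba, nanoceria minus untreated was -0.29 in space and 0.63 on ground, with an interaction of -0.92, and space minus ground was -0.49 in treated cells and 0.43 in untreated cells. For Ccn2, nanoceria minus untreated was -0.18 in space and 0.75 on ground, with an interaction of -0.93. The space side rests on 1 untreated array in each case. In limma's interaction term 0 probe sets had an adjusted p below 0.05, and at an unadjusted p below 0.05 there were 545 of 23188. Because these genes were chosen with the same arrays in view, the difference between regimes is given as values only. Without ground untreated replicate 3 the interaction was -0.79 for Ajuba and -0.46 for Ccn2.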

How the results depend on the processing

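The counts of probe sets at an adjusted p below 0.05 were 0 in all 7 comparisons as reported. For space minus ground the count was 1 with an intensity trend in the variance and 4 with array weights. Leaving out 1 array gave 0 to 1 for space minus ground, 0 to 167 for nanoceria on ground, where the 167 came without ground untreated replicate 1, and 0 to 6 for space minus ground in untreated cells, where the 6 came without the same array. The other alternatives gave 0, as did all of them for the remaining 4 comparisons. Without ground untreated replicate 1, the only untreated ground array left was replicate 3, which stood apart in mitotic genes. The cause of these changes in the counts was not tested. Stk38l passed under array weights for space minus ground and no other member passed anywhere. Over 648 member differences recomputed under scalings, array weights, the replicate block and left-out arrays, 28 changed sign and 24 moved by more than the residual SD, and the sign changes were all of Ccn1, Ccn2, Lats2 or Wwtr1. In particular, Ccn1 was at -0.03 for nanoceria without ground untreated replicate 3, and Ccn1 and Ccn2 were both at -0.01 for regime without space untreated replicate 1. With the replicate number as a block the counts stayed at 0 in all 7 comparisons and Stk38l was at -1.17 for regime and 1.00 for treatment. The labels do not say that a number marks a shared culture run, so the numbers were not treated as pairs. The deviations of same-numbered arrays from their group means correlated at -0.35 to -0.01 over probe sets. In a group of 2 arrays the deviations mirror each other, so these correlations cannot decide whether the numbers are pairs. Intervals that need a detection limit could not be given, and no member had a further probe set to compare. Values of list genes, list medians and nearest profiles without ground untreated replicate 3 were added after seeing the data.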
